A study of Mus musculus with 8 samples.

Results

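The data concern 4 mouse genes for growth factors that the oocyte secretes, Gdf9, Bmp15, Bmp6 and Fgf8, measured on 8 oocyte arrays. They were taken by symbol, as the row of the authors' deposited table that carries only that symbol, and each of the 4 had exactly 1 such row among 29455 genes with a row of their own. The comparison asked how oocyte transcripts differed after low-dose exposure to bisphenol S (BPS), a compound that has replaced bisphenol A in many products. The BPS group held 4 arrays from female ICR mice, an outbred strain, that received 0.1 ng BPS per g body weight per day by oral gavage for 7 days in 50 µl of 50% glycerol with 0.1% DMSO. The control group held 4 arrays from female ICR mice labelled as untreated, and no vehicle gavage is named for them. All mice were 8 weeks old on a diet without phyto-oestrogens. The labels name oocytes as the tissue while the protocols describe the collection of ovaries, and they do not say whether an array is 1 animal or a pool, so p-values measure the spread between these arrays.

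GDF9 and BMP15 are close relatives in the TGF-beta family. The oocyte makes them as precursors that furin-type proteases cut, and the mature dimers act on the surrounding granulosa and cumulus cells through the type II receptor BMPR2, type I receptors and SMAD proteins. BMP6 belongs to the same family and signals through SMADs of the BMP branch, whereas FGF8 binds receptor tyrosine kinases and acts with BMP15 on glycolysis in mouse cumulus cells. These factors keep cumulus cells in their state around the oocyte and, at ovulation, enable the cumulus matrix to expand.

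On the GRCm38.p6 assembly, Gdf9 spans 53430774 to 53437904 of chromosome 11 and Bmp15 spans 6314054 to 6320724 of chromosome X. Bmp6 spans 38345716 to 38500314 of chromosome 13 and Fgf8 spans 45736491 to 45742941 of chromosome 19. The Gdf9 span overlaps that of Uqcrq, and the Bmp6 span overlaps those of Txndc5 and 4930579J19Rik. Whether any probe lies in a shared stretch was not analysed here. RefSeq promoters were matched for 2 of the 4 genes. The 250 bases before the start of Bmp15 (chrX:6320725-6320974, minus strand) and of Bmp6 (chr13:38345466-38345715, plus strand) are shown because FIGLA and NOBOX, transcription factors of the oocyte whose genes are described below, bind E-boxes and homeobox motifs. The motifs searched on both strands were the E-box (CANNTG), a homeobox motif (TAATTG) and the TATA box (TATAAA). Capitals mark the E-box, whose pattern CANNTG, though not each marked site, reads alike on both strands.
Bmp15: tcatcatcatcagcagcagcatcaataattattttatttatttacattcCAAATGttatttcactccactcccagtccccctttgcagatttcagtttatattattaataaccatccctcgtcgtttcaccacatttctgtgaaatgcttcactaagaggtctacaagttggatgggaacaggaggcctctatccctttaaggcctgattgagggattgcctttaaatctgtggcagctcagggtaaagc
Bmp6: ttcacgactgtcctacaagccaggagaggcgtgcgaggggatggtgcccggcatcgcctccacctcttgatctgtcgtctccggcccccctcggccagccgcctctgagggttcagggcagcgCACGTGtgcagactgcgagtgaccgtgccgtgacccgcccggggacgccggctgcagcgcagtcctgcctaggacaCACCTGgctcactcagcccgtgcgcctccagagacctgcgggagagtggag
The Bmp15 stretch held 1 E-box, beginning 201 bases before the start, and the Bmp6 stretch held 2, beginning 127 and 51 bases before it. An E-box was present in 66.2% of 32851 RefSeq promoters of this length. TAATTG in that exact form was in neither stretch, and 7.17% of promoters held it. Other forms of homeobox motif were not searched. The Bmp15 stretch as printed holds TAATTA, which differs from TAATTG in its last base. How many promoters hold TAATTA was not counted, and binding to it was not tested. TATAAA was found once, on the opposite strand of the Bmp15 stretch, and 12.4% of promoters held it. The GC content was 40.4% for Bmp15 and 68.8% for Bmp6, against a median of 52.4%.

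Signals are log2 RMA values, and every difference is the BPS mean minus the control mean in log2 units. A gene was taken as above background when its mean over the 8 arrays exceeded 4.53, the 95th percentile of 1734 probe sets for Y-linked genes and for olfactory and vomeronasal receptors. Of the 29455 genes with a row of their own, 9029 lay above background. Array medians ran from 4.15 to 4.21. Of 12 oocyte marker genes, 12 lay above background. Zp3, a zona pellucida protein, stood at 10.97 ± 0.03 in BPS and 10.95 ± 0.07 in control arrays (SD, n = 4 each). The 12 differences ran from -0.38 to 0.23. The lowest was that of Zar1, a maternal-effect gene singled out after its values were seen, with 10.81 ± 0.22 in BPS and 11.19 ± 0.23 in control arrays (limma adjusted p = 0.408). Zar1 was the only one of the 12 oocyte markers to pass in a fit with a block. It was lower in BPS with the array-series block described below (limma adjusted p = 0.0299), which called 3.47% of all probe sets. Zar1 did not pass with the replicate block (0.0773) or with the array-series block after quantile normalization (0.0708). Of 12 granulosa and cumulus markers 2 lay above background, Inha and Nr5a2, while 0 of 13 theca and stroma, 0 of 5 erythroid and 0 of 8 leukocyte markers did. The granulosa gene Amh averaged 4.12 in BPS and 4.08 in control arrays, and Fshr averaged 4.29 in BPS and 4.24 in control arrays, all below background. The mean level of the 12 granulosa and cumulus markers ran from 4.38 to 4.59 over BPS arrays and from 4.32 to 4.43 over control arrays, and its part in the results was not tested. In bulk RNA, fewer cells of a type and less RNA per cell cannot be told apart.

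The array names in the authors' deposited table fall in 2 series, 4 arrays named with a number and 4 with a letter, each holding 2 BPS and 2 control arrays. The labels do not say what the series stand for, and values are given for both.

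All 4 growth factor genes had a mean above background, and no difference between BPS and control oocytes passed the test. Each lay above background on all 8 arrays, Fgf8 on 1 control array by less than the 2 decimals of the signals show. In limma without covariates 0 of the 4 passed an adjusted p of 0.05, against 0.0087% of all probe sets, and 0 passed an unadjusted p of 0.05, against 11.1%. The groups overlapped for each of the 4, while 5.8% of all probe sets had groups that did not. With the replicate numbers as a block 0 of the 4 passed (1.99% of all probe sets), with the array series as a block 0 passed (3.47%), and with that block after quantile normalization 0 passed (1.77%). Each of the 95% intervals below held 0.

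Gdf9, whose protein is needed for follicles to grow past the primary stage in mice, had the smallest spread of the 4. Its signals were 9.78 and 9.86 on the number-named BPS arrays and 9.79 and 9.84 on the letter-named ones. In control arrays they were 9.84 and 9.97 for number-named and 9.77 and 9.87 for letter-named arrays. All 4 BPS values lay within the range of the control values. The means were 9.82 ± 0.04 in BPS and 9.86 ± 0.08 in control arrays (SD, n = 4 each). The difference was -0.04 ± 0.05 (SE; limma adjusted p = 0.761; two-sided exact permutation p = 0.486), with a 95% interval from -0.17 to 0.08, which corresponds to folds of 0.891 to 1.05. Its pooled SD within groups was 0.06. Among the 212 probe sets within 0.5 log2 units of its level, 3.77% had a smaller one.

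Bmp15, the X-linked partner of Gdf9 whose product also acts on granulosa cells, had signals of 10.88 and 10.84 on number-named and 10.79 and 10.61 on letter-named BPS arrays. Control arrays gave 11.02 and 10.85 when number-named and 10.70 and 10.76 when letter-named. The highest value was a control array and the lowest a BPS array, and the other 6 values were interleaved. The means were 10.78 ± 0.12 in BPS and 10.83 ± 0.14 in control arrays (SD, n = 4 each). They differed by -0.05 ± 0.09 (SE; limma adjusted p = 0.832; two-sided exact permutation p = 0.629), with a 95% interval from -0.25 to 0.15 or folds of 0.84 to 1.11. Its pooled SD was 0.13, and 73.5% of the 49 probe sets within 0.5 log2 units of its level had a smaller one.

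Bmp6, a BMP ligand of the growing oocyte, had signals of 6.70 and 6.76 on number-named and 7.01 and 6.91 on letter-named BPS arrays. In control arrays it had 6.92 and 6.71 on number-named and 6.80 and 7.09 on letter-named ones. The lowest BPS value was just under the lowest control value, and the other BPS values lay between control values. The means were 6.84 ± 0.14 in BPS and 6.88 ± 0.16 in control arrays (SD, n = 4 each), a difference of -0.04 ± 0.10 (SE; limma adjusted p = 0.909; two-sided exact permutation p = 0.714) with a 95% interval from -0.26 to 0.19 or folds of 0.833 to 1.14. Its pooled SD was 0.15, and 16.0% of the 1215 probe sets within 0.5 log2 units of its level had a smaller one.

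Fgf8, the only FGF among the 4, lay 0.45 above background in mean. Its BPS signals were 4.83 and 4.85 on number-named and 5.11 and 5.25 on letter-named arrays. Its control signals were 4.53 and 5.12 on number-named and 4.98 and 5.14 on letter-named arrays, so 1 control array stood at the background level. The means were 5.01 ± 0.20 in BPS and 4.94 ± 0.28 in control arrays (SD, n = 4 each). The difference of 0.07 ± 0.15 (SE; limma adjusted p = 0.884; two-sided exact permutation p = 0.83) had the widest 95% interval of the 4, from -0.29 to 0.42 or folds of 0.82 to 1.34. Its pooled SD was 0.25, and 65.7% of the 6046 probe sets within 0.5 log2 units of its level had a smaller one. The control array with the lowest Fgf8 signal was also the array with the highest Bmp15 signal.

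**Figure D1:**
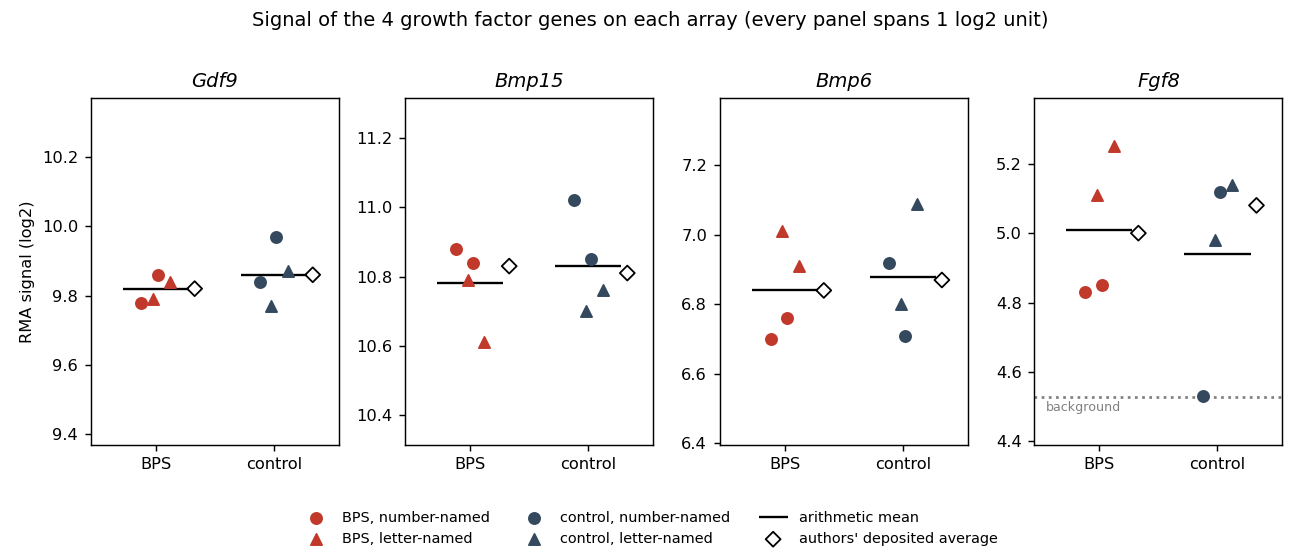
RMA signal in log2 units (vertical axes, each spanning 1 log2 unit) of Gdf9, Bmp15, Bmp6 and Fgf8 on the 4 BPS (red, left) and 4 control arrays (dark, right). Circles are number-named and triangles letter-named arrays, horizontal lines are arithmetic means, open diamonds are the averages in the authors' deposited table and the dotted line is the background level. BPS and control values overlap in every panel, and for Bmp15 and Fgf8 the order of the diamonds is opposite to that of the lines.

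The sign of the Bmp15 and Fgf8 differences depended on how a group was averaged. For Bmp15 the authors' deposited table gave 10.83 in BPS and 10.81 in control arrays, and for Fgf8 it gave 5.00 in BPS and 5.08 in control arrays, both opposite in order to the arithmetic means. For Gdf9 the authors' deposited table gave 9.82 in BPS and 9.86 in control, and for Bmp6 6.84 in BPS and 6.87 in control, in the same order as the means. Tukey's biweight, an average that gives less weight to values far from the median, matched the averages of the authors' deposited table within 0.02 for 34472 of 34472 probe sets in BPS and 34472 in control arrays. The arithmetic mean matched within that tolerance for 57.3% in BPS and 58.3% in control arrays. The biweight differences were 0.02 for Bmp15 and -0.08 for Fgf8. In the authors' deposited table the p-values of the 4 genes ran from 0.5177 to 0.7794 and their FDR values from 0.9273 to 0.9691.

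The differences were also read against the shift of probe sets above background. Over all probe sets the median difference was 0.025. Taken over probe sets above background, the median difference was 0.12, or 0.00 after quantile normalization, so the 4 genes lay 0.16, 0.17, 0.15 and 0.05 below that median in the order Gdf9, Bmp15, Bmp6 and Fgf8. When each array was centred on the median of its probe sets above background, the differences became -0.22 for Gdf9, -0.22 for Bmp15, -0.21 for Bmp6 and -0.10 for Fgf8, with limma adjusted p between 0.241 and 0.507. After quantile normalization they were -0.07 ± 0.07 for Gdf9, -0.06 ± 0.09 for Bmp15, -0.17 ± 0.09 for Bmp6 and -0.04 ± 0.13 for Fgf8 (SE). None passed under either.

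**Figure D2:**
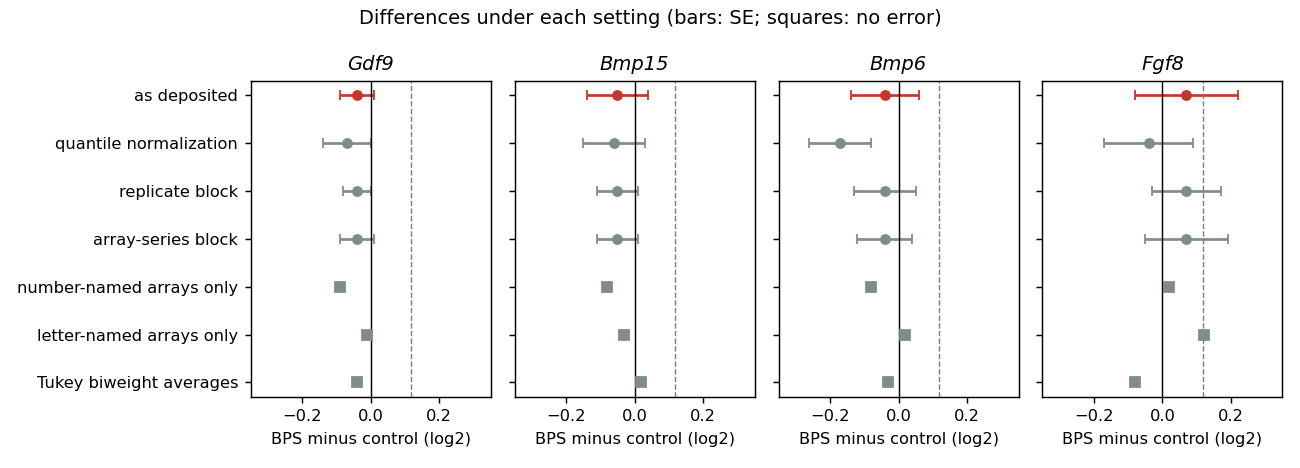
BPS minus control difference in log2 units (horizontal axes) of the 4 genes under 7 settings (rows), with SE as bars where a fit across all arrays gave one and squares where only a value is shown. The solid line marks 0 and the dashed line the median difference of probe sets above background, 0.12. The as-deposited values lie between -0.05 and 0.07, and no setting shown moves a gene beyond -0.17 or 0.12.

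For Bmp15, Bmp6 and Fgf8 the difference between the series of array names was larger in size than that between BPS and control, without passing the adjusted threshold. Letter-named minus number-named arrays, with the group in the model, differed by -0.18 ± 0.06 for Bmp15 (SE; limma adjusted p = 0.134), 0.18 ± 0.08 for Bmp6 (adjusted p = 0.247) and 0.29 ± 0.12 for Fgf8 (adjusted p = 0.228). The value for Gdf9 was -0.04 ± 0.05 (SE; limma adjusted p = 0.657). Over all probe sets 5.51% passed the adjusted threshold in this comparison. The limma unadjusted p between the series was 0.0175 for Bmp15, 0.057 for Bmp6, 0.0486 for Fgf8 and 0.415 for Gdf9. The share of all probe sets under an unadjusted p of 0.05 between the series is not given here. Within the number-named arrays BPS minus control was -0.09 for Gdf9, -0.08 for Bmp15, -0.08 for Bmp6 and 0.02 for Fgf8. Within the letter-named arrays it was -0.01, -0.03, 0.02 and 0.12 in the same order of genes. In the limma test of the difference between the series, 0 of the 4 genes passed at an adjusted or an unadjusted p of 0.05, and over all 34472 probe sets 0 passed the adjusted and 21 the unadjusted threshold.

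The genes of the same pathways that were listed beside the 4 members comprised 136 measured genes in 9 lists. Of these, 33 lay above background, against 9029 of all 29455 genes. In limma without covariates 0 of the 136 passed the adjusted threshold, against 0.0087% of all probe sets. An unadjusted p under 0.05 was found for 7 of the 136, against 11.1% of all probe sets, and for 3 of the 33 above background, against 20.1% of such probe sets. The median difference of the 33 was 0.04, and -0.05 after quantile normalization.

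Most other ligands on the lists lay below background, as did most genes on these arrays. Of 32 measured TGF-beta family ligands 7 lay above background, Gdf9, Bmp15, Bmp6, Bmp5, Tgfb2, Tgfb3 and Inha, and the list had a median difference of 0.03. Gdf1 shares its probe set with another symbol and was not used here. Tgfb2 averaged 8.26 ± 0.06 in BPS and 8.17 ± 0.07 in control arrays (SD, n = 4 each; limma adjusted p = 0.529), and Tgfb3 averaged 5.08 ± 0.18 in BPS and 4.87 ± 0.20 in control arrays (limma adjusted p = 0.521). The largest difference of the list was that of Inha, the inhibin alpha subunit that granulosa cells make, with 5.55 ± 0.69 in BPS and 4.98 ± 0.38 in control arrays (limma adjusted p = 0.542). Its BPS values were 5.24, 5.05, 5.34 and 6.56 and its control values 4.50, 4.86, 5.32 and 5.26. The highest, 6.56, was on a letter-named BPS array and stood apart from the other BPS values. The lowest control value lay below background. Inha was singled out after its values were seen. Of 22 FGF ligands 3 lay above background, Fgf8, Fgf1 and Fgf18, with a list median of 0.00. Fgf1 averaged 5.40 ± 0.13 in BPS and 5.14 ± 0.28 in control arrays and Fgf18 4.74 ± 0.28 in BPS and 4.68 ± 0.38 in control arrays, neither past the threshold.

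Some receptors for the factors lay above background. Of 13 TGF-beta family receptors 4 did, about the share of all genes (9029 of 29455), with a median difference of 0.00 for the list. Bmpr2, the type II receptor for GDF9 and BMP15, averaged 9.99 ± 0.23 in BPS and 10.14 ± 0.15 in control arrays (SD, n = 4 each; difference -0.15 ± 0.12 SE, limma adjusted p = 0.661). Its BPS values were 10.02, 9.71, 10.28 and 9.97 and its control values 10.08, 9.98, 10.19 and 10.32, which overlap. Bmpr1b, a type I receptor of BMP15, averaged 6.41 ± 0.21 in BPS and 6.22 ± 0.22 in control arrays, and Bmpr1a 4.62 ± 0.13 in BPS and 4.58 ± 0.13 in control arrays. Acvr1b, an activin type I receptor, averaged 4.96 ± 0.19 in BPS and 5.23 ± 0.36 in control arrays. Tgfbr1, the type I receptor of GDF9, lay below background at 4.09 in BPS and 4.01 in control arrays.

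No SMAD gene or extracellular inhibitor passed either. Of 16 SMAD and SMAD feedback genes 7 lay above background, with a list median of 0.03. Smad4, the shared partner of the other SMADs, averaged 5.69 ± 0.11 in BPS and 5.49 ± 0.11 in control arrays (SD, n = 4 each; difference 0.20 ± 0.07 SE, limma adjusted p = 0.414), and its difference was 0.02 after quantile normalization. Ski, a SMAD corepressor, averaged 7.11 ± 0.19 in BPS and 7.00 ± 0.12 in control arrays. Of 13 extracellular antagonists only Twsg1, a BMP-binding protein, lay above background, at 5.23 ± 0.34 in BPS and 4.77 ± 0.31 in control arrays (limma adjusted p = 0.454), and the list median was 0.02.

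Among 16 FGF receptor and feedback genes 6 lay above background, with a list median of -0.03. Frs2, an adaptor that docks to FGF receptors, had 5.07, 5.21, 5.87 and 5.12 in BPS arrays and 4.41, 4.66, 4.84 and 4.67 in control arrays. Its groups did not overlap, and the difference of 0.67 ± 0.18 (SE) had a limma adjusted p of 0.369, or 0.0542 with the replicate block. Etv5, a transcription factor induced by FGF signals, averaged 4.81 ± 0.22 in BPS and 4.55 ± 0.19 in control arrays. Fgfr2 averaged 5.73 ± 0.16 in BPS and 5.55 ± 0.16 in control arrays, and Fgfr1 lay below background at 4.29 in BPS and 4.33 in control arrays. Groups also did not overlap for Sqle, Gdf2 and Lhcgr, making 4 of the 136 genes against 5.8% of all probe sets. Gdf2 and Lhcgr lay below background and are named here because their groups separated.

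Of 6 proprotein processing genes only Furin, the protease that cleaves such precursors, lay above background, with a list median of 0.05. It had 7.13, 8.07, 7.86 and 7.54 in BPS arrays and 7.92, 7.97, 7.89 and 7.92 in control arrays. The BPS arrays spread over a wider range than the control arrays, with an SD of 0.41 in BPS and 0.03 in control arrays, and the difference of -0.27 ± 0.18 (SE) did not pass (limma adjusted p = 0.571). Of 7 oocyte transcription regulators 6 lay above background, with a list median of 0.03. Nobox, a homeobox factor that activates Gdf9 in mice, averaged 9.54 ± 0.05 in BPS and 9.57 ± 0.06 in control arrays. Nr6a1, a nuclear receptor that represses Gdf9 and Bmp15 in mice, averaged 5.18 ± 0.08 in BPS and 5.28 ± 0.09 in control arrays. Figla, an oocyte bHLH factor, had 5.32, 5.25, 5.59 and 6.01 in BPS arrays and 4.86, 4.91, 5.12 and 5.53 in control arrays. Its difference was 0.44 ± 0.20 (SE; limma adjusted p = 0.461). With the replicate numbers as a block Figla (limma adjusted p = 0.0368) and the below-background ligand Gdf11 (0.0492) passed as higher in BPS, 2 of the 136 against 1.99% of all probe sets. With the array-series block neither passed (limma adjusted p = 0.0965 for Figla and 0.0885 for Gdf11). That block called 0 of the 136, against 3.47% of all probe sets. After quantile normalization the replicate block called 0 of the 136, against 319 of all 34472 probe sets. The limma adjusted p in that fit was 0.0544 for Figla and 0.0655 for Gdf11.

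Cumulus genes that respond to oocyte factors in mice lay mostly below background, as did most genes on these arrays. Of 17 such genes 2 lay above background, with a list median of 0.03. The hyaluronan synthase gene Has2 averaged 4.06 in BPS and 4.04 in control arrays, and Ptx3, a protein of the expanded cumulus matrix, 3.93 in BPS and 3.94 in control arrays, all below background. Kitl, the ligand of the oocyte receptor KIT, averaged 4.36 in BPS and 4.20 in control arrays, also below it. Sqle, an enzyme of cholesterol synthesis, averaged 4.67 ± 0.13 in BPS and 5.00 ± 0.14 in control arrays (limma adjusted p = 0.369), and Pfkp, a glycolytic enzyme, averaged 4.79 ± 0.32 in BPS and 4.91 ± 0.13 in control arrays.

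**Figure D3:**
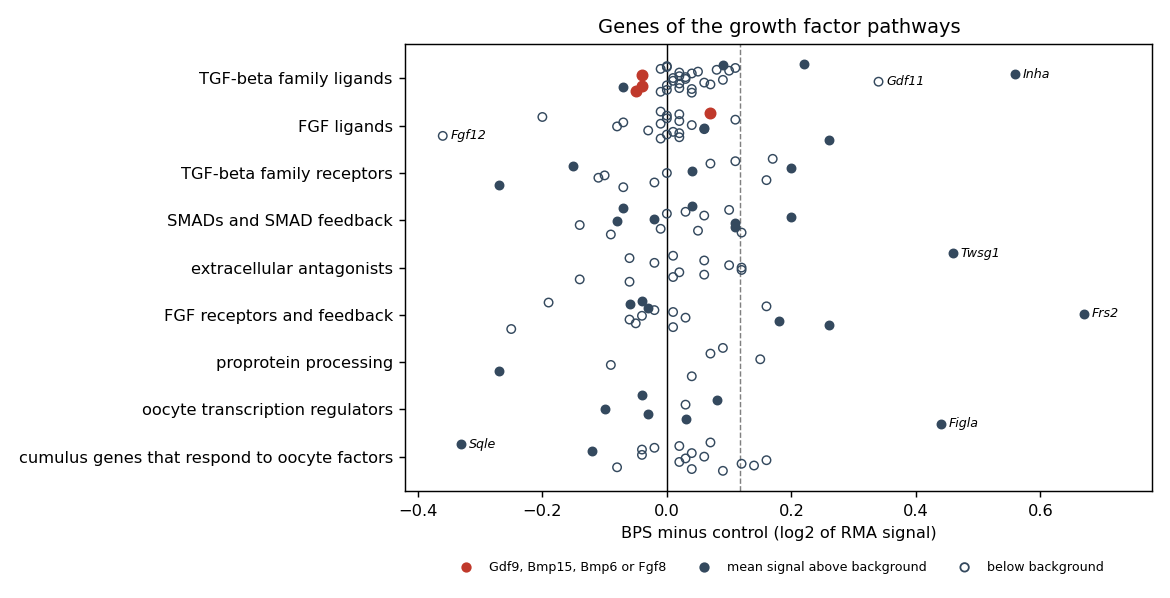
BPS minus control difference in log2 units (horizontal axis) of each measured gene in the 9 pathway lists (rows), with the 4 growth factor genes in red, other genes above background filled and genes below it open. The solid line marks 0 and the dashed line 0.12, the median of probe sets above background. The growth factor genes lie between -0.05 and 0.07, and the named outer points run from Fgf12 at -0.36 to Frs2 at 0.67, none of which passed the adjusted threshold without a block. Names mark points at 0.32 or farther from 0.

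Genes with the most similar pattern over the 8 arrays were picked by Pearson correlation from 7375 single-symbol probe sets above background, with predicted and small RNA symbols left out. They were Ing1 (0.940) and Tmem134 (0.931) for Gdf9, Ddost (0.951) and Parp12 (0.943) for Bmp15, Skiv2l2 (0.996) and Gfm1 (0.971) for Bmp6, and Cyb5r4 (0.983) and Ip6k2 (0.974) for Fgf8. The values are the highest of 7375 and describe likeness only. The 8 arrays span both series of names, and over the 4 arrays of 1 series these correlations ran from 0.764 to 0.998. The ranges of these genes over the 8 arrays ran from 0.25 for Ing1 to 0.83 for Ip6k2 and 0.99 for Ddost, against 0.20 for Gdf9 to 0.72 for Fgf8 among the growth factors. Without the array on which the similar gene lay farthest from its own median, a step added after seeing the data, the correlations over 7 arrays ran from 0.837 for Ing1 to 0.996 for Skiv2l2. That of Ddost with Bmp15 was 0.921 without its farthest array, a letter-named BPS array. A correlation above 0.9 was found for 4 probe sets with Gdf9, 10 with Bmp15, 20 with Bmp6 and 77 with Fgf8.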

How the data were processed

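RNA of 8 oocyte samples was measured on Affymetrix MoGene ST arrays. RMA at gene level gave the authors 1 signal per probe set, with NetAffx annotation release 36 for mm10, per the file headers. Transcriptome Analysis Console is the tool in the submitters' processing notes. The deposited signals are log2 values with 2 decimals. The authors' deposited table also holds group averages in log2, a signed fold (a score, control over treated, negative where BPS is higher), p-values and FDR values, 4 of the p-values with a decimal comma. The authors' test, and any scaling after RMA, are not given in the sources used here. The 8 signal columns of the table equal the 8 columns of the value table in every row. They were assigned to groups by the header line, since their names match no sample title. Replicate numbers came from the titles through the value table.

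limma 3.58.1 (lmFit, then eBayes; R 4.3.3) was run on all 34472 probe sets (two-sided, Benjamini-Hochberg over all probe sets, threshold 0.05), a script also tested on simulated data. Beside it stood an exact permutation test of each member over 70 splits, which cannot give a p below 0.0286. Genes were named from the 29971 probe sets with 1 symbol, using the brightest. Alternatives were other normalizations, filters, variance priors, blocks and leaving out each array. Named genes were the members, the 2 most like each, the 2 of smallest p above background per pathway list and a set of receptors, regulators and markers named in any case. The members and lists were chosen with earlier results of these data known. Tables and plots used Python 3.11.15, pandas 2.3.3, scipy 1.17.1 and matplotlib 3.10.9.

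Deviations from group means of same-numbered BPS and control arrays correlated at 0.519, 0.383, 0.173 and 0.362 over probe sets above the median level. All exceed 0.1, the threshold for fitting the numbers as a block, although no label states what a number stands for. The correlations followed the array series rather than the single number: all 4 pairs of different number within a series lay between 0.305 and 0.493, and all 8 pairs from different series between -0.553 and -0.268. Precision is limited by the 4 arrays per group.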

Additional observations from a re-analysis of the deposited data

Results flagged for a closer look

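In 5 of 80 groups of 4 arrays, over the members and named genes, 1 array stood far from the other 3, where chance gives about 1 in 20. None of the groups was one of the 4 growth factors. In BPS arrays Smad4 stood at 5.52 on 1 number-named array, with the others at 5.74. Etv5 stood at 5.14 on 1 letter-named BPS array, with the others between 4.68 and 4.71. Has2 stood at 4.19 on 1 number-named BPS array, with the others between 4.00 and 4.02, all below background. Ing1 stood at 5.80 on 1 number-named BPS array, with the others between 5.67 and 5.68. Ddost stood at 4.87 on 1 letter-named BPS array, with the others between 5.46 and 5.55.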

How the results depend on the processing

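None of the 4 growth factor genes passed under any alternative run, and the Gdf9 difference kept its sign in all of them. Bmp15 turned to 0.02 with the Tukey biweight average, chosen after seeing the data. Bmp6 turned to 0.02 within the letter-named arrays. Fgf8 turned to -0.10 when centred on probe sets above background, -0.04 after quantile normalization, with or without the replicate block or the array-series block (the combinations added after seeing the data), and -0.08 with the biweight. When 1 array was left out, the difference ran from -0.08 to -0.01 for Gdf9, from -0.10 to 0.01 for Bmp15 (0.00 without BPS replicate 4 and 0.01 without control replicate 1), from -0.09 to 0.04 for Bmp6 (0.01 without BPS replicate 1 and 0.04 without control replicate 4) and from -0.07 to 0.13 for Fgf8 (-0.01 without BPS replicate 4 and -0.07 without control replicate 1). Each gene had 1 row, so averaging rows gave no further value. All 4 genes lay above the other background levels tried except Fgf8, which lay below the 99th percentile, 5.12.

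The count of 3 probe sets called among all 34472 became 1 after median centring or with robust eBayes, 0 after quantile normalization (3753 at an unadjusted p under 0.05) or with limma-trend (3950), 685 with the replicate block, 1195 with the array-series block, and after quantile normalization 319 and 611 with the same blocks in that order. Leaving out 1 array gave 0 to 3 calls: 0 without control replicate 1, 2, 3 or 4 and 0 without BPS replicate 4. The count of 0 pathway genes became 2 with the replicate block and was 0 without any 1 array. The replicate block changed no call of the 4 genes. The causes were not tested.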

Other observations

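The averages in the authors' deposited table and the arithmetic means of the same signals gave opposite signs of the BPS minus control difference in 3901 of 34472 probe sets (11.3%), and in 1091 of 10236 above background (10.7%). Among the 2061 probe sets above background with an unadjusted limma p under 0.05, 0 had opposite signs. Bmp15 and Fgf8 belong to the probe sets with opposite signs.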
